A study of Mus musculus with 6 samples.

Results

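The genes described here are 43 genes of BMP and TGF-beta signalling: ligands, their receptors and co-receptors, extracellular modulators, SMAD proteins and the *Id* genes. They were chosen by symbol as known genes of the pathway, and all 43 were found among the 55421 genes of the count table. The retinas came from 2-month-old mice, with 3 from control animals (Yapfl/fl; YR612, YR613 and YR615) and 3 from *Yap* cKO animals (Yapfl/fl;RaxCreERT2; YR711, YR713 and YR714). Both groups carried the floxed *Yap* alleles and both received 4-hydroxytamoxifen (4OH-T) at postnatal days 10 and 14. The difference that the labels give is the Cre transgene. Sex and litter are not labelled, and by their counts 1 control and 2 *Yap* cKO retinas were read as female. The comparison addressed which transcripts differ in retinas of mice with a conditional deletion of *Yap*, which encodes YAP, a transcriptional co-activator of the Hippo pathway. Cre in this line acts in cells that express *Rax*, which in the postnatal eye are Müller glia and the non-pigmented epithelium of the ciliary body, whereas the RNA came from whole retinas.

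Ligands of the TGF-beta family bind a complex of type I and type II serine/threonine kinase receptors, and the type I receptor phosphorylates SMAD proteins that move to the nucleus with SMAD4. BMPs act mainly through SMAD1, SMAD5 and SMAD9 and are known to induce the *Id* genes, whereas TGF-betas and activins act mainly through SMAD2 and SMAD3. Secreted antagonists such as noggin and chordin hold BMPs away from their receptors, and in the eye BMP signalling is known for its part in the patterning of the retina and in the formation of the ciliary body.

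The targeted gene was checked first. *Yap1* stood at 9.48, 9.52 and 9.83 TPM (counts divided by exonic length and scaled to the same total in each retina) in control retinas and at 3.99, 3.76 and 3.94 TPM in *Yap* cKO retinas, lower in all 3 retinas labelled as *Yap* cKO (log2 fold change -1.36, SE 0.093, adjusted p = 0.000282). Between 24261799 and 35067068 fragments per retina were assigned to genes, and 16575 genes, all 43 listed ones among them, passed the filter on low counts. Rod markers summed to 48445 to 54865 TPM in all retinas, as retina requires, and the lens markers to 1.23 to 4.18 TPM, with *Lim2* at 0. Markers of some tissues next to the retina summed to less in every *Yap* cKO retina than in every control. The 6 genes of the ciliary non-pigmented epithelium and retinal margin summed to between 108 and 120 TPM in controls and between 50.3 and 70.8 TPM in *Yap* cKO. *Optc* made up much of this difference (means 48.0 and 4.56 TPM). *Zic1*, *Zic2* and *Otx1* were also lower without overlap, while *Col9a1* and *Wfdc1* overlapped between the groups. The 6 melanin genes summed to between 71.2 and 78.5 TPM in controls and between 17.2 and 48.3 TPM in *Yap* cKO. The sum of the 4 pigment epithelium markers was lower in YR711 and YR713, but in YR714 (558 TPM) it was within the control range (530 to 576 TPM). In bulk RNA, fewer cells of a type and less RNA per cell cannot be told apart.

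The 250 bases before the start that RefSeq gives are shown for 4 members: *Fstl1*, which passed the test, *Bmp4*, the ligand with the highest coefficient of biological variation, and *Id3* and *Id4*, whose windows hold the letters GGAATG that TEAD factors, the DNA-binding partners of YAP, are known to favour. The windows are from RefSeq (GRCm38.p6), read 5′ to 3′ on the gene's strand, at chr16:37776805-37777054 (+ strand) for *Fstl1*, chr14:46390670-46390919 (- strand) for *Bmp4*, chr4:136143572-136143821 (+ strand) for *Id3* and chr13:48260866-48261115 (+ strand) for *Id4*. Capitals mark matches on either strand, so that GGAATG also appears in its reverse complement, to these letters or, in the window of *Id4*, to GGCGCC, a core of the sites that BMP SMADs bind. The annotation used for counting starts *Fstl1* and *Id3* further upstream, so that part of the *Fstl1* window and all of the *Id3* window lie inside the counted gene.
Fstl1: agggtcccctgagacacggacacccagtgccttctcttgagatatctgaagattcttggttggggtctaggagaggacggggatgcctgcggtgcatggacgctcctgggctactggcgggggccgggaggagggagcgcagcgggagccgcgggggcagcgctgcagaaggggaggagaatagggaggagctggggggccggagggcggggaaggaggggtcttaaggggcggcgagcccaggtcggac
Bmp4: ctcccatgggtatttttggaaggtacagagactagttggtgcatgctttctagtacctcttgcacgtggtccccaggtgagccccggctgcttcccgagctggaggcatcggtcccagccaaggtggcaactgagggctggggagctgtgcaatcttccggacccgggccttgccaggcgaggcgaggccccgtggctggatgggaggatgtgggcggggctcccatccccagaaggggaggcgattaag
Id3: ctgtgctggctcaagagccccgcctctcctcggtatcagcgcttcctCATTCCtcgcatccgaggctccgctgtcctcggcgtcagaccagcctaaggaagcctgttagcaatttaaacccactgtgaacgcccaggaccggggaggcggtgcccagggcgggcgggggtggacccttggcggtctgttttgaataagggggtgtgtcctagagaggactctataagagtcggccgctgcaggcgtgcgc
Id4: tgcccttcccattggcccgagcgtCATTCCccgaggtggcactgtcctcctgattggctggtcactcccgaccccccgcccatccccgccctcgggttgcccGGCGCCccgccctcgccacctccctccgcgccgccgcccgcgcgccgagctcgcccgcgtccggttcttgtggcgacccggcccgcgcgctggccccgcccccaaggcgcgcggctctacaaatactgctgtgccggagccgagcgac
Windows were given for 31 of the 43 members (36 windows in all). GGAATG was found in 2 of these windows, those of *Id3* and *Id4*, and in 12.6% of the 32851 windows of all genes. GGCGCC was found in the windows of 9 members (*Bmpr1a*, *Bmpr2*, *Chrd*, *Grem1*, *Id2*, *Id4*, *Smad5*, *Smad9* and *Tgfbr1*) and in 9.59% of all windows. GTCTAGAC, a palindrome that TGF-beta SMADs bind, was found in no member window and in 0.167% of all windows. These matches describe letters within short windows, and no binding was measured in these retinas.

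Across the 43 genes, few differed between the groups by edgeR's quasi-likelihood test. At a threshold of 0.05 on the Benjamini-Hochberg adjusted p, *Bmp2* and *Fstl1* passed, both lower in *Yap* cKO. These 2 were 4.65% of the members, where 1.49% of all tested genes passed in either direction and 0.989% passed as lower. The 43 genes were listed with earlier results of these data known, so this share cannot be read as a test of the pathway. By this test, none of the 43 met the full criteria of the study. These are the same threshold together with a 1.5-fold change and a group mean of 5 TPM or more. *Bmp2* lay below the TPM minimum and *Fstl1* below the fold minimum. Of all tested genes, 132 (0.796%) met these criteria here. The study reported more genes at them and names edgeR but not which of its tests, so its own calls can differ. With the same criteria, DESeq2 gave 2 members (*Bmp4* and *Id3*), edgeR's likelihood ratio test gave 1 (*Bmp4*) and limma-voom gave 0. At an unadjusted p of at most 0.05 there were 12 members, 7 lower and 5 higher, which is 27.9% of the members beside 21.4% of all genes tested. The TPM values of the groups did not overlap for 8 members (18.6%), beside 24.3% of all genes. These shares at an unadjusted p and without overlap were near those of all genes. The median log2 fold change of the members was 0.05, beside 0.002 over all genes tested.

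**Figure D1:**
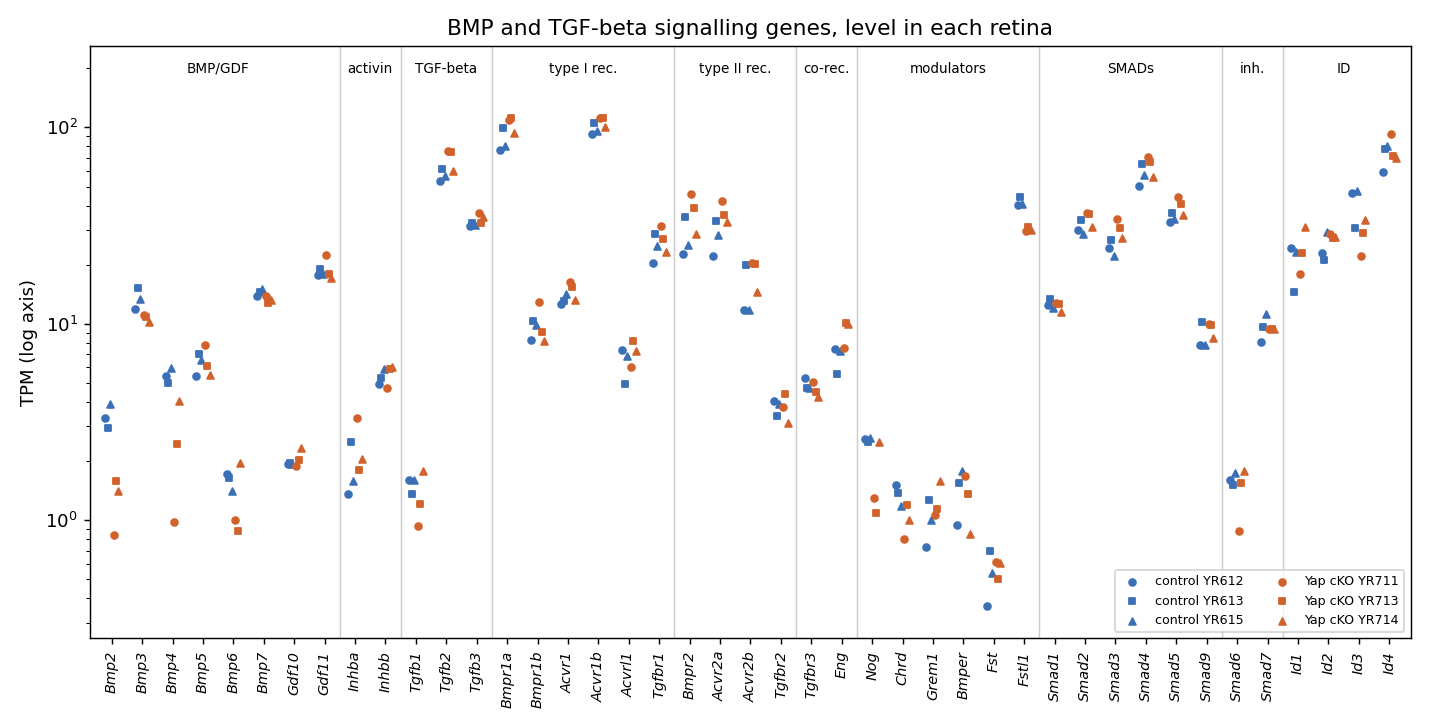
Level of each of the 43 genes in TPM (log axis) in the 3 control retinas (blue) and the 3 *Yap* cKO retinas (orange), with 1 symbol per retina and the genes grouped by role. Group means over all 6 retinas run from 0.554 TPM for *Fst* to 103 TPM for *Acvr1b*, and the orange points of *Bmp2*, *Bmp4* and *Fstl1* lie below all blue points.

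Among the ligands, only *Bmp2* passed the test, and the lowest log2 fold changes were those of *Bmp2* and *Bmp4*. *Bmp2*, which encodes a BMP that signals through BMPR1A and BMPR2, lies on chromosome 2 at 133552159 to 133562885 (+ strand). It was measured at 3.33, 2.96 and 3.92 TPM in control retinas and at 0.837, 1.58 and 1.40 TPM in *Yap* cKO retinas. Every *Yap* cKO retina was below every control retina, and the group means were 3.40 ± 0.485 and 1.27 ± 0.389 TPM (SD, n = 3 each). This is a fold change of 2.74 (log2 fold change -1.45, SE 0.24, adjusted p = 0.0246). These values rest on few fragments, between 72 and 107 per control retina and between 19 and 49 per *Yap* cKO retina. With 1 retina left out, the log2 fold change of *Bmp2* lay between -1.65 and -1.24, and the adjusted p rose above 0.05 without YR612 (0.104), YR615 (0.131) or YR713 (0.0544).

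*Bmp4*, the close relative of *Bmp2* with the same type I receptors (chromosome 14, 46383520 to 46390669, - strand), varied more between animals. Its levels were 5.39, 4.998 and 5.96 TPM in controls and 0.975, 2.45 and 4.04 TPM in *Yap* cKO. The groups did not overlap, but the *Yap* cKO retinas spread over a wide range, and the gene's coefficient of biological variation was 0.299, where the common value over all genes was 0.112. The log2 fold change of -1.18 (SE 0.36) did not pass the test (adjusted p = 0.127). It passed without YR714, the *Yap* cKO retina with the highest level (log2 fold change -1.69, adjusted p = 0.0199), and passed by DESeq2 (adjusted p = 0.0291) and by edgeR's likelihood ratio test (0.0427).

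The most abundant pigment epithelium markers ranked the *Yap* cKO retinas as *Bmp4* did. The 4 genes of that list summed to between 530 and 576 TPM in controls and to 167, 310 and 558 TPM in YR711, YR713 and YR714, the order in which *Bmp4* stood in these retinas, and 0 of the 4 passed edgeR's quasi-likelihood test. *Ttr* and *Rpe65* made up most of this sum. *Best1*, at 1.09, 1.604 and 0.965 TPM in the same retinas, was ordered differently, and the sums of the controls (530, 576 and 556 TPM) did not follow *Bmp4*. The part of these cells in the *Bmp4* values was not tested. In YR714 the pigment epithelium sum was within the control range. *Rpe65* in this retina (68.6 TPM) was just below its lowest control (70.5 TPM), and *Lrat* (19.1 TPM) was above its highest control (11.6 TPM). In the same retina *Bmp2* was at 1.40 TPM and *Bmp4* at 4.04 TPM, both below the lowest control. The melanin sum (26.6 TPM) and the ciliary epithelium sum (50.3 TPM) of YR714 were below their control ranges.

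*Bmp3*, a ligand known to oppose other BMPs, was measured at 11.9, 15.2 and 13.3 TPM in controls and at 11.1, 10.9 and 10.2 TPM in *Yap* cKO. The *Yap* cKO values lay just below the lowest control, and the log2 fold change of -0.38 (SE 0.094) gave an adjusted p of 0.0831. With offsets corrected for gene length the log2 fold change was -0.46 and the adjusted p 0.0149. *Bmp7*, which is known to be needed for eye formation, also did not overlap between the groups, at 13.92, 14.49 and 14.99 TPM in controls and 13.87, 12.81 and 13.18 TPM in *Yap* cKO (log2 fold change -0.18, adjusted p = 0.288).

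The remaining BMP and GDF ligands were *Bmp5*, *Bmp6*, *Gdf10* and *Gdf11*, and their groups overlapped. *Bmp6* had a log2 fold change of -0.37 (SE 0.31, adjusted p = 0.492), while those of the other 3 lay between -0.03 and 0.05 and changed sign with the setting or the retina left out. In all, 6 of 8 genes in this role had a log2 fold change below 0 (median -0.28), where 8246 of all 16575 tested genes did. One of the 6 was *Bmp5*, at -0.03 with group means of 6.32 TPM in controls and 6.45 TPM in *Yap* cKO, and *Gdf11* fell below 0 with library size scaling or limma-voom.

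*Tgfb2*, the TGF-beta ligand with the highest level here and of all ligands listed, was measured at 53.4, 61.4 and 56.9 TPM in controls and at 76.0, 74.9 and 60.2 TPM in *Yap* cKO. Of the *Yap* cKO retinas, 2 were above all controls and YR714 was within them. The log2 fold change was 0.24 (SE 0.093, adjusted p = 0.185), and without YR714 it was 0.33 (adjusted p = 0.0493). *Tgfb3* was higher in every *Yap* cKO retina than in every control by a small margin, at 31.32, 32.48 and 31.69 TPM against 36.84, 32.54 and 34.87 TPM (log2 fold change 0.07, SE 0.082, adjusted p = 0.645). *Tgfb1* and the activin subunits *Inhba* and *Inhbb* were between 1.41 and 5.46 TPM on average and overlapped between the groups, with adjusted p-values of 0.534, 0.491 and 0.970.

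**Figure D2:**
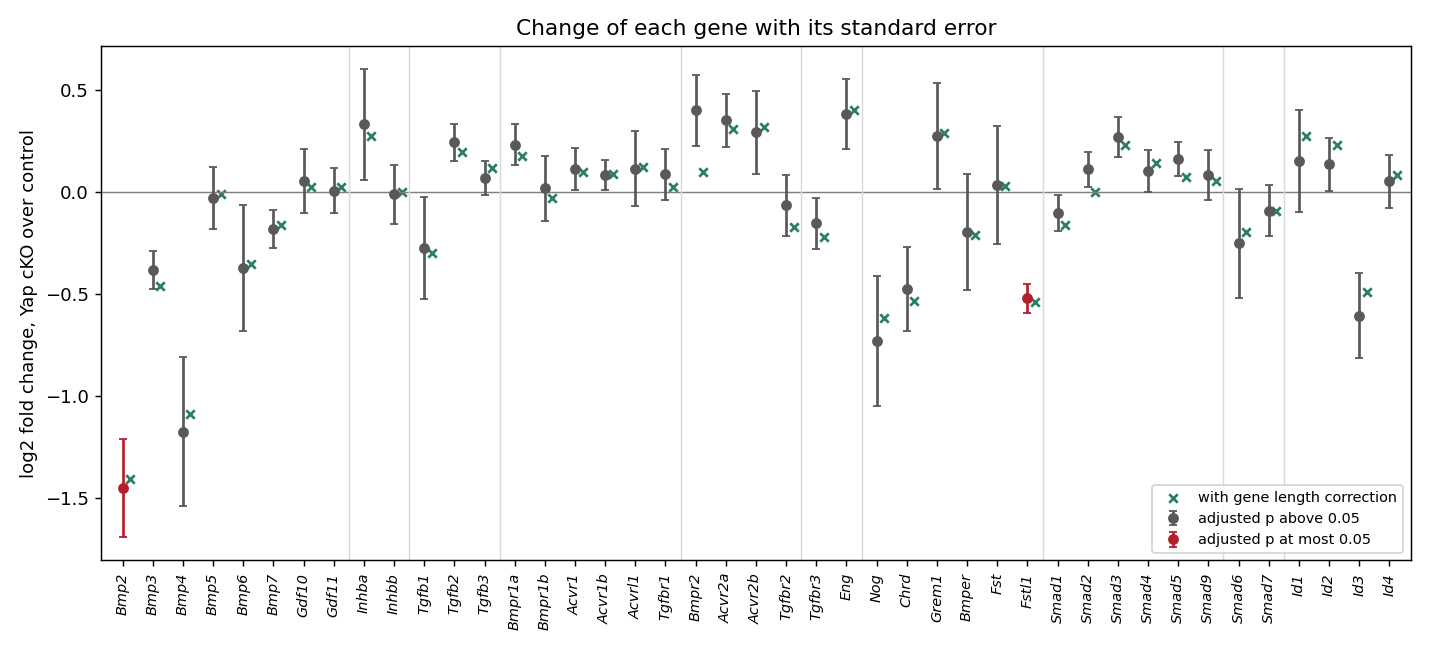
Log2 fold change of each of the 43 genes, *Yap* cKO over control, with its standard error (points and bars), and the value with offsets corrected for gene length (crosses). *Bmp2* and *Fstl1* are in red as past the threshold, and the cross of *Bmp2* (-1.41) lies close to its point (-1.45) whereas that of *Bmpr2* falls from 0.40 to 0.10.

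None of the receptors passed edgeR's quasi-likelihood test, while *Bmpr1a*, *Bmpr2* and *Acvr2a* had an unadjusted p of at most 0.05. These were 1 of 6 type I and 2 of 4 type II receptors, beside 21.4% of all genes tested. *Acvr1b*, the activin type I receptor, was the most abundant member at 92.9, 105 and 96.1 TPM in controls and 112, 112 and 101 TPM in *Yap* cKO (log2 fold change 0.08, SE 0.074, adjusted p = 0.523). *Bmpr1a*, the main type I receptor for BMP2 and BMP4, was at 77.0, 99.8 and 80.4 TPM in controls and at 109, 112 and 93.2 TPM in *Yap* cKO. Here 2 *Yap* cKO retinas were above all controls and the third was within them, and the log2 fold change of 0.23 (SE 0.10) had an adjusted p of 0.225. The log2 fold changes of *Bmpr1b*, *Acvr1*, *Acvrl1* and *Tgfbr1* lay between 0.02 and 0.11 with adjusted p-values of at least 0.543. All 6 type I receptors were above 0 with all retinas, except that *Bmpr1b* fell to just below 0 with library size scaling, limma-voom or the length correction. With 1 retina left out, *Bmpr1b* (-0.05 without YR612 and -0.19 without YR711), *Tgfbr1* (-0.02 without either) and *Acvrl1* (-0.06 without YR613) were below 0.

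*Acvr2a*, a type II receptor for activins and BMPs, was measured at 22.02, 33.3 and 28.2 TPM in controls and at 42.0, 35.6 and 33.0 TPM in *Yap* cKO. The lowest *Yap* cKO value was just below the highest control, and the log2 fold change was 0.35 (SE 0.13, adjusted p = 0.177). *Bmpr2*, the type II receptor of BMPs and the most abundant gene of its role, was at 22.7, 35.1 and 25.1 TPM in controls and at 45.8, 38.97 and 28.8 TPM in *Yap* cKO. The groups overlapped through YR613 and YR714, and the log2 fold change was 0.40 (SE 0.17, adjusted p = 0.225). *Bmpr2* has the longest exonic length of the members (17983 bases), and with the length correction its log2 fold change was 0.10 (adjusted p = 0.573). Without YR613, the control retina highest for both, *Acvr2a* and *Bmpr2* passed (adjusted p = 0.0408 and 0.0458), as did *Acvr2b*. *Acvr2b* and *Tgfbr2* otherwise had log2 fold changes of 0.29 and -0.07 (adjusted p = 0.417 and 0.818).

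Of the co-receptors, *Eng*, which encodes the endothelial co-receptor endoglin, was at 7.45, 5.55 and 7.26 TPM in controls and at 7.503, 10.05 and 9.94 TPM in *Yap* cKO. All 3 *Yap* cKO values were above the controls, the lowest by a small margin, and the log2 fold change of 0.38 (SE 0.17) had an adjusted p of 0.236. The 6 endothelial markers summed to between 164 and 180 TPM in controls and to 198, 160 and 142 TPM in YR711, YR713 and YR714, a sum made up mostly of *Kdr*. Of these markers *Cdh5* was ordered much like *Eng*, at 5.34, 4.44 and 5.42 TPM in controls and 5.997, 7.11 and 7.10 TPM in *Yap* cKO, without overlap (log2 fold change 0.35, adjusted p = 0.203). *Cldn5* had the opposite sign (log2 fold change -0.52, adjusted p = 0.181), and 3 of the 6 markers were below 0 (median log2 fold change -0.02). The part of endothelial cells in the *Eng* values was not tested. *Tgfbr3* (betaglycan) had a log2 fold change of -0.15 (adjusted p = 0.482). Its exons overlap those of 1 other gene on the same strand, as do those of *Smad5*, so that fragments there can be lost to the count.

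*Fstl1* was the member with the smallest p. It encodes a secreted glycoprotein of the follistatin family that is known to bind BMPs, and it lies on chromosome 16 at 37776873 to 37836514 (+ strand). Its levels were 40.3, 44.4 and 40.8 TPM in controls and 29.8, 31.2 and 29.9 TPM in *Yap* cKO. The *Yap* cKO retinas were close to each other and all below the controls (means 41.9 ± 2.23 and 30.3 ± 0.78 TPM, SD, n = 3 each). The log2 fold change was -0.52 (SE 0.072, fold change 1.44, adjusted p = 0.00999), and its coefficient of biological variation, 0.075, was below the common value. With 1 retina left out it lay between -0.54 and -0.50, and the adjusted p rose above 0.05 without YR612 (0.0555), YR615 (0.0591) or YR713 (0.0648). The same 3 omissions left 0 members past the threshold of edgeR's quasi-likelihood test, while between 49 and 93 genes of the whole table passed.

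The summed levels of several marker lists were lower in the same retinas in which *Fstl1* was lower, though not those of every gene in them. The 10 Müller glia markers summed to between 7054 and 7281 TPM in controls and between 6219 and 6664 TPM in *Yap* cKO, and by edgeR's quasi-likelihood test 0 of the 10 passed. Of these 10 genes 6 were below 0 (median log2 fold change -0.18), and *Kcnj10* was higher in all 3 *Yap* cKO retinas (log2 fold change 0.28, adjusted p = 0.126). Of the ciliary epithelium and margin list, 6 of 6 genes were below 0 and 1 passed, *Optc*, at 50.2, 45.6 and 48.2 TPM against 2.86, 8.39 and 2.44 TPM. The 6 fibroblast genes summed to between 10.8 and 13.1 TPM in controls and between 7.80 and 10.8 TPM in *Yap* cKO. That difference came mostly from *Col1a2*, which passed the test (means 3.52 and 0.811 TPM), while the median log2 fold change of the 4 tested genes was -0.03. The part of these cell types in the *Fstl1* and *Bmp2* values was not tested.

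Noggin (*Nog*), which binds BMP2 and BMP4 directly, was measured at 2.59, 2.50 and 2.61 TPM in controls and at 1.29, 1.08 and 2.50 TPM in *Yap* cKO. YR714 stood at the control level and the other *Yap* cKO retinas below it, and the log2 fold change of -0.73 (SE 0.32) had an adjusted p of 0.227. Without YR714 it was -1.19 (adjusted p = 0.0447). Chordin (*Chrd*), another direct BMP antagonist, was at 1.502, 1.38 and 1.19 TPM in controls and at 0.801, 1.19 and 1.01 TPM in *Yap* cKO, with an overlap between YR615 and YR713 (log2 fold change -0.48, SE 0.21, adjusted p = 0.22). *Grem1*, *Bmper* and *Fst* were at or below 1.36 TPM on average, and their log2 fold changes of 0.27, -0.20 and 0.03 had adjusted p-values of at least 0.556.

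**Figure D3:**
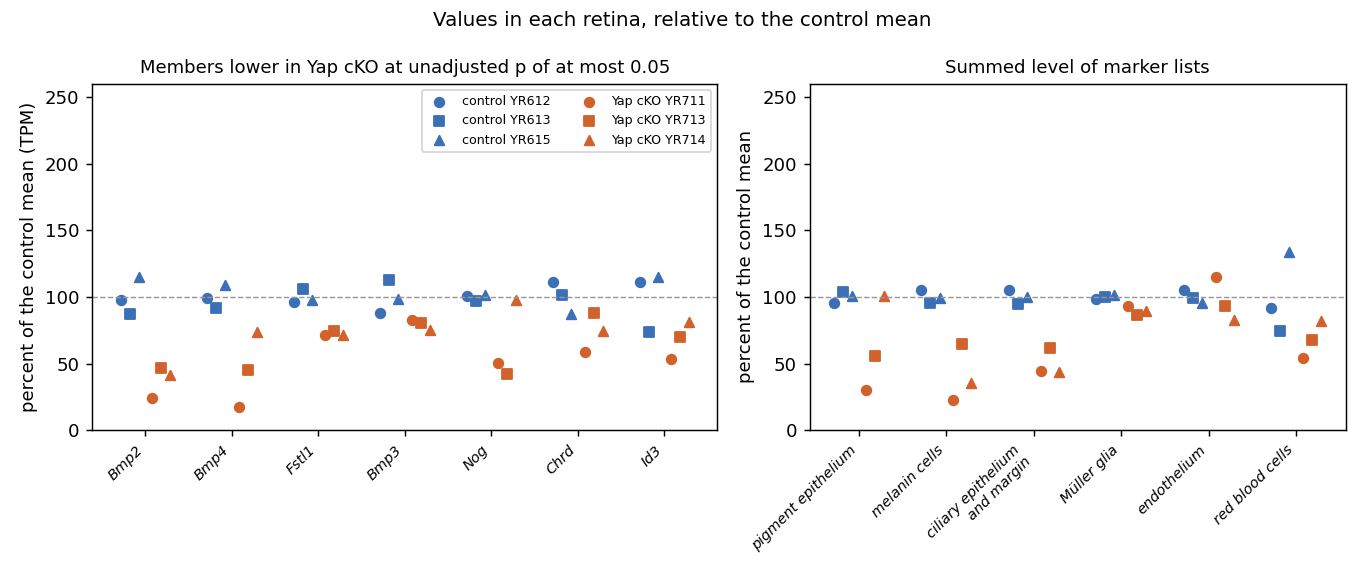
Values in each retina as a percent of the control mean, for the 7 members that were lower in *Yap* cKO at an unadjusted p of at most 0.05 (left, TPM) and for the summed TPM of 6 marker lists (right). Blue is control and orange is *Yap* cKO, and the dashed line is the control mean. The orange triangle (YR714) is at the control level for the sum of the pigment epithelium list and for *Nog*, and below the controls for *Bmp2* and *Fstl1*.

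None of the 6 receptor-activated and common SMAD genes passed edgeR's quasi-likelihood test, and 1, *Smad3*, had an unadjusted p of at most 0.05 (16.7%, beside 21.4% of all genes tested). *Smad4*, the common partner of the others, had the highest mean of its role, at 50.2, 65.1 and 57.5 TPM in controls and 70.3, 66.7 and 55.9 TPM in *Yap* cKO (log2 fold change 0.10, SE 0.10, adjusted p = 0.574). *Smad3*, which carries TGF-beta and activin signals, was at 24.5, 26.8 and 22.2 TPM in controls and at 34.1, 30.6 and 27.3 TPM in *Yap* cKO. All *Yap* cKO values were above the controls, with YR714 closest to them, and the log2 fold change of 0.27 (SE 0.098) had an adjusted p of 0.173. Over the alternatives that kept all 6 retinas, its adjusted p lay between 0.0899 and 0.178. The BMP SMADs *Smad1*, *Smad5* and *Smad9* had log2 fold changes of -0.10, 0.16 and 0.08, and *Smad2* had 0.11, which became -0.003 with the length correction. The adjusted p-values of these 4 were at least 0.289.

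The inhibitory SMADs, which BMP and TGF-beta signals are known to induce, overlapped between the groups. *Smad7* was at 8.11, 9.62 and 11.2 TPM in controls and at 9.38, 9.38 and 9.45 TPM in *Yap* cKO, so that all *Yap* cKO retinas lay within the control range (log2 fold change -0.09, SE 0.12, adjusted p = 0.683). *Smad6* averaged 1.51 TPM and had a log2 fold change of -0.25 (SE 0.27, adjusted p = 0.599).

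The 4 *Id* genes, which encode inhibitors of basic helix-loop-helix factors and are used as readouts of BMP signalling, did not move together. *Id3* (chromosome 4, 136143497 to 136145755, + strand) was measured at 46.2, 30.6 and 47.7 TPM in controls and at 22.1, 29.1 and 33.8 TPM in *Yap* cKO. YR613 was low among the controls and within the *Yap* cKO range. The log2 fold change of -0.61 (SE 0.21) had an adjusted p of 0.151 and passed without YR613 (-0.80, adjusted p = 0.0223). DESeq2 gave an adjusted p of 0.0498 for *Id3*. With the length correction the log2 fold change of *Id3* was -0.49 (adjusted p = 0.136). The 5 red blood cell genes summed to 54.9, 44.8 and 79.8 TPM in controls and to 32.5, 40.6 and 49.3 TPM in *Yap* cKO. This sum ranks the 6 retinas in the same order as *Id3*, and so does *Junb*, an immediate early gene. *Hbb-bs* made up most of the sum, and it placed YR714 (33.9 TPM) below YR613 (34.6 TPM), unlike *Id3*. *Hba-a1* and *Hba-a2* were highest in YR714 (5.77 and 3.07 TPM), and 4 of the 5 genes had a log2 fold change below 0. The part of red blood cells in the *Id3* values was not tested.

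*Id1* was at 24.3, 14.6 and 23.3 TPM in controls and at 17.9, 22.9 and 31.0 TPM in *Yap* cKO (log2 fold change 0.15, SE 0.25, adjusted p = 0.752). Its lowest value was in control YR613, and without that retina the log2 fold change was -0.06. *Id2* was at 23.0, 21.0 and 29.2 TPM in controls and at 28.8, 27.4 and 27.6 TPM in *Yap* cKO, within the control range (log2 fold change 0.13, SE 0.13, adjusted p = 0.565). *Id4*, the most abundant of the 4 and the other member with GGAATG in its window, was at 59.2, 77.3 and 80.6 TPM in controls and at 92.9, 71.2 and 70.0 TPM in *Yap* cKO (log2 fold change 0.05, SE 0.13, adjusted p = 0.837). Thus the members that share these letters had log2 fold changes of -0.61 and 0.05.

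The rest of the pathway was examined with a second list of 78 symbols, of which 77 were found and 56 passed the filter on low counts. The list was written with earlier results of these data known, so its share of calls cannot be read as a test of the pathway. In this list 4 genes passed the threshold of 0.05 on the adjusted p (7.14%, beside 1.49% of all genes tested), 2 lower and 2 higher. All 4 were among the 12 tested genes that the list groups as extracellular antagonists. The other 44 tested genes, among them other ligands, processing enzymes, receptors, intracellular regulators and target genes, gave 0 by edgeR's quasi-likelihood test, with 11 of them (25%, beside 21.4% of all genes) at an unadjusted p of at most 0.05. *Nbl1*, which encodes the BMP antagonist DAN, was at 128, 106 and 120 TPM in controls and at 80.4, 83.8 and 80.9 TPM in *Yap* cKO. It was below the controls in all 3 *Yap* cKO retinas (log2 fold change -0.59, SE 0.098, adjusted p = 0.0242). *Sostdc1*, which encodes an antagonist of BMPs that also binds a Wnt co-receptor, was at 7.06, 6.55 and 7.82 TPM in controls and at 3.34, 4.13 and 3.37 TPM in *Yap* cKO. Again all 3 were below the controls (log2 fold change -1.03, SE 0.17, adjusted p = 0.0241), and both genes met the full criteria of the study. With the length correction the log2 fold change of *Nbl1* was -0.48, under the fold minimum, and *Sostdc1* alone met them.

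Other genes of this group were higher, and their place in it rests on the list and not on any activity measured here. *Fstl4*, of the follistatin-like family, was at 2.46, 2.90 and 2.47 TPM in controls and at 4.32, 6.09 and 4.38 TPM in *Yap* cKO (log2 fold change 0.87, SE 0.17, adjusted p = 0.0436). *Vwc2l*, which encodes a secreted protein with chordin-like repeats, was at 5.89, 7.59 and 6.99 TPM in controls and at 11.1, 10.3 and 9.59 TPM in *Yap* cKO (log2 fold change 0.54, SE 0.11, adjusted p = 0.0421). The groups of neither gene overlapped. *Chrdl1*, a chordin-like BMP antagonist, had the next smallest p, at 13.6, 16.5 and 15.6 TPM in controls and 21.3, 21.6 and 19.3 TPM in *Yap* cKO (log2 fold change 0.39, SE 0.085, adjusted p = 0.061). The calls of *Nbl1*, *Sostdc1*, *Fstl4* and *Vwc2l* were lost without YR612, YR615, YR711 or YR713, where the count of the list was 0, and kept without YR613 or YR714. Their adjusted p-values over these omissions reached 0.124, 0.13, 0.205 and 0.189. With sex as a covariate, *Fstl4* (0.0768) and *Vwc2l* (0.0621) were past the threshold no longer.

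**Figure D4:**
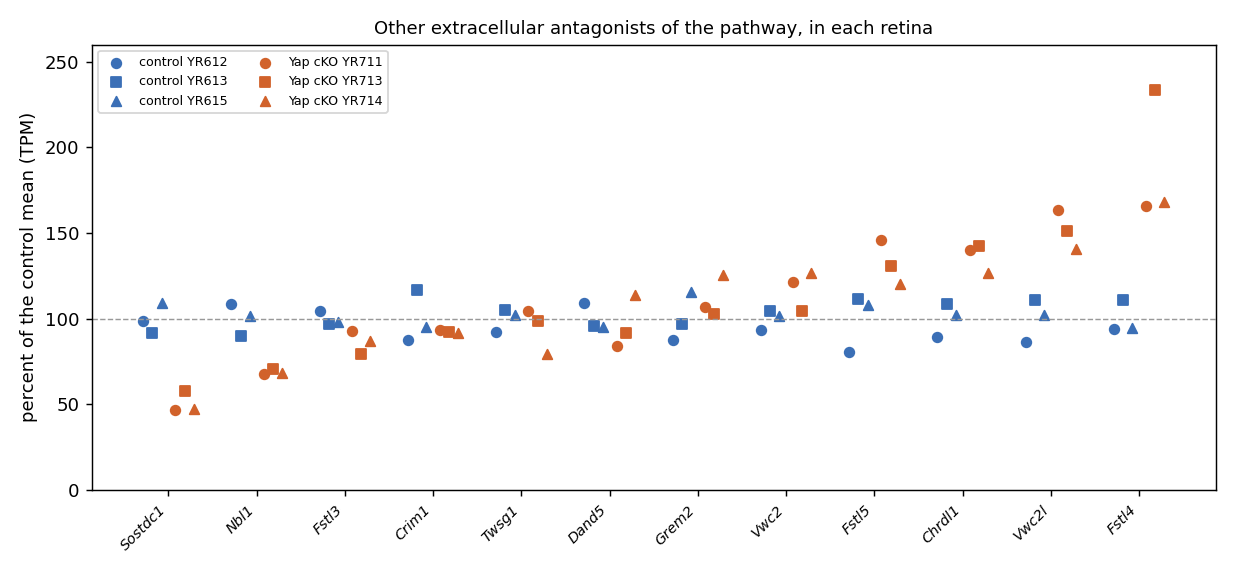
The 12 tested genes grouped as extracellular antagonists in the second list, in each retina, as a percent of the control mean TPM, ordered by log2 fold change from *Sostdc1* to *Fstl4*. Blue is control and orange is *Yap* cKO. The *Yap* cKO retinas lie below all controls for *Sostdc1* and *Nbl1* and above all controls for *Chrdl1*, *Vwc2l* and *Fstl4*.

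The calls within the 43 genes depended on the test and on single retinas. DESeq2 added *Bmp3*, *Bmp4* and *Id3* to *Bmp2* and *Fstl1*, and edgeR's likelihood ratio test added *Bmp3* and *Bmp4*. *Bmp2* and *Fstl1* passed under all 8 alternatives that kept the 6 retinas, with log2 fold changes between -1.64 and -1.41 and between -0.54 and -0.52, and each in 3 of the 6 fits with 1 retina left out.

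**Figure D5:**
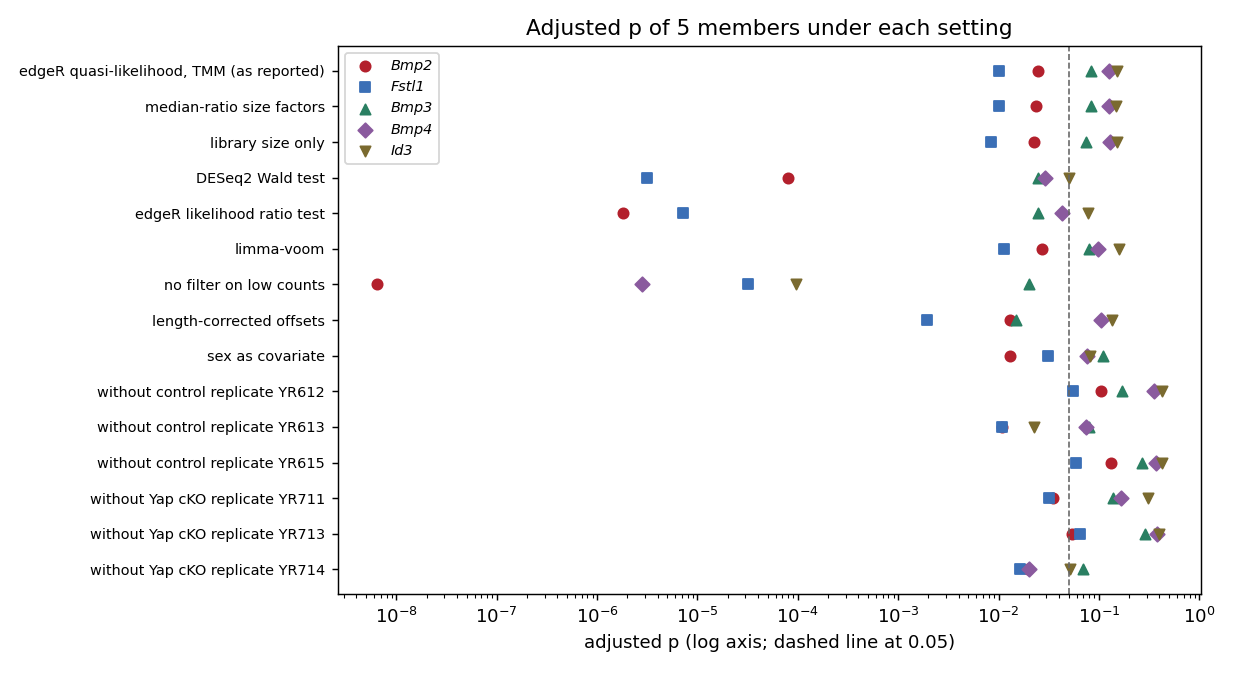
Adjusted p (log axis) of *Bmp2*, *Fstl1*, *Bmp3*, *Bmp4* and *Id3* under the reported test (top) and each alternative, with the dashed line at 0.05. The points of *Bmp2* and *Fstl1* are left of the line in all settings with 6 retinas and cross it without YR612, YR615 or YR713.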

How the data were processed

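Gene counts came from 6 retinas, 3 per group, as the labels give them. Per the submitters' processing notes and the paper's methods, the authors aligned paired-end stranded reads to GRCm38 with STAR 2.7.3a. The file header names featureCounts 1.6.2, strand setting 2 and annotation release 98, while the paper's text names another release. The deposited values are counts without normalization, and all 6 count columns were matched to samples (0 unmatched). The exonic length given for each gene was used for TPM.

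In R 4.3.3, edgeR 4.0.16 was used with its filterByExpr filter (by group), TMM factors (0.986 to 1.02) and the quasi-likelihood test of the *Yap* cKO group against the control group (common dispersion 0.0126). P-values were adjusted by the Benjamini-Hochberg method over all 16575 genes that passed the filter. Each standard error is the log2 fold change divided by the square root of its F statistic. Alternatives used limma 3.58.1, DESeq2 1.42.0, median-ratio or library size scaling, the likelihood ratio test, no filter, offsets corrected for length by a loess curve (span 0.3), sex as a covariate (read from the counts: 1 control and 2 *Yap* cKO retinas female), and fits that leave out 1 retina each. The main fit was tested on simulated counts, and the alternatives were not.

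The members, the second pathway list and the marker lists were chosen with earlier results of these data known. Values in every retina are given for members with an unadjusted p of at most 0.05, *Id1* to *Id4* and the most abundant member of each role (all ligands taken as 1 role), and, of the second list, for the 5 genes with the smallest p. *Bmp7* and *Tgfb3* were added after their values were seen. The labels give each retina its own animal code, and the study calls them independent replicates. No exact permutation test was run, because with 3 retinas a side its smallest two-sided p is 0.1. Depth enters through the counts behind each value, and counting error alone is larger for genes near 1 TPM. Promoter windows were read from RefSeq.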

Additional observations from a re-analysis of the deposited data

How the results depend on the processing

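The number of members with an adjusted p of at most 0.05 was 2 as reported, 5 by DESeq2, 4 by edgeR's likelihood ratio test, 7 without a filter on low counts, and between 0 and 6 with 1 retina left out. The number of members that met all criteria of the study was 0 by edgeR's quasi-likelihood test. It was 2 by DESeq2, 1 by the likelihood ratio test and 2 without a filter. It was 1 with a minimum of 1 TPM (*Bmp2*), 1 without a fold minimum (*Fstl1*), and between 0 and 1 with 1 retina left out. In the second pathway list the number was 4 as reported, 7 by DESeq2, 9 by the likelihood ratio test, 13 without a filter, 2 with sex as a covariate, and between 0 and 10 with 1 retina left out. Over all genes the count was 247 as reported, 892 by DESeq2, 1025 by the likelihood ratio test, 1865 without a filter, 459 with the length correction, 151 with sex as a covariate, and between 49 and 1490 with 1 retina left out. The cause of these differences was not tested.

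Of the members' log2 fold changes under all alternatives, 545 kept their direction and their side of the threshold, 18 came to pass it, 6 no longer passed it and 32 changed sign. With sex as a covariate they were *Bmp5* (0.0153) and *Id1* (-0.0092). With library size scaling they were *Gdf11* (-0.0114) and *Bmpr1b* (-0.0004), with limma-voom *Gdf11* (-0.0062) and *Bmpr1b* (-0.0108), and with the length correction *Bmpr1b* (-0.0322) and *Smad2* (-0.0032). With 1 retina left out, the log2 fold change ranged from -0.178 to 0.0515 for *Bmp5*, from -0.053 to 0.114 for *Gdf10*, from -0.119 to 0.0625 for *Gdf11*, from -0.0951 to 0.0913 for *Inhbb*, from -0.19 to 0.13 for *Bmpr1b*, from -0.0572 to 0.246 for *Acvrl1* and from -0.024 to 0.185 for *Tgfbr1*. It ranged from -0.194 to 0.0348 for *Tgfbr2*, from -0.41 to 0.0061 for *Bmper*, from -0.15 to 0.24 for *Fst*, from -0.184 to 0.026 for *Smad7*, from -0.0969 to 0.314 for *Id1* and from -0.0879 to 0.134 for *Id4*.

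No paired analysis was possible because the retinas of the groups carry different animal codes. Some members at low TPM rest on few fragments, such as 14 to 34 per retina for *Nog* (mean 2.10 TPM, length 1695 bases). For *Fst* (mean 0.554 TPM) there were 11 to 22, and no detection limit was computed for such members.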

Other observations

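Genes that BMP or TGF-beta signals are known to induce were listed among the other pathway genes, and 7 of these targets passed the filter on low counts. None had an adjusted p of at most 0.05 by edgeR's quasi-likelihood test. An unadjusted p of at most 0.05 was found for 2 (28.6%, beside 21.4% of all genes tested), *Atoh8* and *Junb*. Of the 7, 5 were below 0 (median log2 fold change -0.25), where 8246 of all 16575 tested genes were. *Atoh8*, a basic helix-loop-helix factor that BMPs induce, was at 1.69, 2.15 and 2.23 TPM in controls and at 0.687, 1.15 and 1.17 TPM in *Yap* cKO (log2 fold change -1.05, SE 0.26, adjusted p = 0.081), and passed by the likelihood ratio test. *Junb*, an immediate early gene, was at 24.1, 12.6 and 28.1 TPM in controls and at 7.76, 11.4 and 18.2 TPM in *Yap* cKO (log2 fold change -0.85, SE 0.35, adjusted p = 0.201), with control YR613 again the lowest control, as for *Id1* and *Id3*.

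Of the 17 intracellular regulators, 13 were above 0 (median log2 fold change 0.15, and 0.06 with the length correction), where 8329 of all 16575 tested genes were. None passed edgeR's quasi-likelihood test, and 5 (29.4%, beside 21.4% of all genes tested) had an unadjusted p of at most 0.05. *Ldlrad4*, which restrains TGF-beta signals by keeping SMADs from their receptor, was at 5.70, 7.12 and 5.74 TPM in controls and at 10.8, 10.4 and 7.55 TPM in *Yap* cKO, without overlap (log2 fold change 0.58, SE 0.15, adjusted p = 0.0889). *Ltbp1*, which holds latent TGF-beta in the matrix, was at 3.71, 4.19 and 4.13 TPM in controls and at 2.99, 3.30 and 1.83 TPM in *Yap* cKO (log2 fold change -0.62, SE 0.18, adjusted p = 0.119). Both passed by DESeq2. The 4 genes named here were chosen after their values were seen.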
